A study of Mus musculus with 12 samples.

Results

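The genes described are imprinted genes of the mouse, taken as a list of 41 symbols and found on the array by symbol alone. A gene was kept where a row of the deposited table carried its symbol and no other, and where it had several such rows the one with the highest mean over 12 arrays was used. This gave 35 of the 41 genes, out of 22180 genes in all. H19, Snrpn, Mirg and Rtl1 were present only on rows that also carry the symbols of other transcripts, and Zrsr1 and Commd1 were not listed in the probe table, so these 6 were not analysed here.

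Imprinted genes are expressed mainly or only from the chromosome inherited from one parent. The choice is carried by DNA methylation laid down in egg or sperm at imprinting control regions, which keep it through cell division with the help of the maintenance methyltransferase Dnmt1. Many of these genes lie in clusters, in which one control region and often one long non-coding RNA act on several neighbours. Azacitidine (AzaC) resembles cytidine, enters DNA and RNA in its place, and traps DNA methyltransferases. The arrays measured the total RNA of each gene and did not tell the maternal from the paternal copy.

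RNA came from mouse T cells in 4 groups of 3 arrays: nTregs with AzaC, nTregs with PBS, CD4 effector T cells (CD4 cells) with AzaC and CD4 cells with PBS. Natural regulatory T cells (nTregs) from spleens of B6.Foxp3GFP mice were cultured at 1 part to 10 parts with Treg-depleted T cells from B6.Foxp3GFP x B6.CAGDSRED animals, and all 12 samples carry one strain label that joins both transgenic lines. All cultures were activated for 2 days with anti-CD3/CD28 beads and human IL-2, then kept 2 more days with 1 µM AzaC or with PBS, and sorted as DsRed-negative Foxp3-GFP-positive (nTregs) or DsRed-positive Foxp3-GFP-negative (CD4 cells). The labels state no age or sex and do not say whether the 3 replicates came from separate animals or cultures. The p-values thus cover only the spread among these 12 samples, which may be technical. Each population is a sorted mixture, in which fewer cells of a type and less RNA per cell cannot be told apart.

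Foxp3, the transcription factor that defines the nTreg sort, averaged 12.69 ± 0.02 in nTregs with AzaC, 12.34 ± 0.31 in nTregs with PBS, 9.62 ± 0.23 in CD4 cells with AzaC and 8.05 ± 0.24 in CD4 cells with PBS (SD, n = 3, log2 signal). The mean over 5 T cell markers (Cd3d, Cd3e, Cd3g, Cd4 and Cd28) lay between 11.52 and 12.13 on every array. It was lower in nTregs than in CD4 cells, 11.52 to 11.82 against 12.06 to 12.13 with PBS. With AzaC it was 11.63 to 11.67 in nTregs against 11.81 to 11.87 in CD4 cells. Array medians were between 6.67 and 6.80. The array nTreg PBS 1 stood apart, with a mean correlation with the others of 0.972, followed by CD4 PBS 3 with 0.979, against 0.983 to 0.987 for the other 10.

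The promoters of 3 genes that differed between groups are shown with that of Kcnq1ot1, which lies in one cluster with Cd81 and did not pass any test. Each window runs from 250 bases before to 50 bases after a gene start in RefSeq (GRCm38.p6), 5′ to 3′ on the strand of the gene, and capitals mark CpG dinucleotides (the letters CG), the bases that DNA methyltransferases modify. The Cd81 window is at chr7:143052500-143052799 (plus strand), that of Airn at chr17:12741061-12741360 (plus strand) and that of Kcnq1ot1 at chr7:143296498-143296797 (minus strand). Ppp1r9a has 2 starts in the table, with windows at chr6:4903061-4903360 (start a) and chr6:4902725-4903024 (start b), both on the plus strand.
Cd81: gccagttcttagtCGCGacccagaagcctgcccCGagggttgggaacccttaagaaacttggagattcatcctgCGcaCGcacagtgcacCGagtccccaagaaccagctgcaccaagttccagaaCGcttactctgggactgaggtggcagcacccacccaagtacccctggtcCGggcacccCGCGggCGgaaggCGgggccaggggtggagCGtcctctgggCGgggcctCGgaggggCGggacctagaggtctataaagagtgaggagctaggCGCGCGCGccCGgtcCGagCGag
Airn: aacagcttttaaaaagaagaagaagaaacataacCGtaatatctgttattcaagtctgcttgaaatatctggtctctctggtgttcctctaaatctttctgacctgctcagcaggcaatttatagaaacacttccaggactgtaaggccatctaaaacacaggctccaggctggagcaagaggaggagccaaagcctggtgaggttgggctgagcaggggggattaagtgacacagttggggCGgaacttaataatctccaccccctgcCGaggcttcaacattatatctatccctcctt
Ppp1r9a, start a: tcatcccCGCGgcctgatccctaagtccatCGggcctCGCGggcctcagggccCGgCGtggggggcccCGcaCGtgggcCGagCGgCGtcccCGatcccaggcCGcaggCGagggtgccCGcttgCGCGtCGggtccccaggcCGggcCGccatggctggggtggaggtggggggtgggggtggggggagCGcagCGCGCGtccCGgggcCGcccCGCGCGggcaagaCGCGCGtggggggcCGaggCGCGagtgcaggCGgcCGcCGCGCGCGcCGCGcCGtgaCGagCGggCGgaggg
Ppp1r9a, start b: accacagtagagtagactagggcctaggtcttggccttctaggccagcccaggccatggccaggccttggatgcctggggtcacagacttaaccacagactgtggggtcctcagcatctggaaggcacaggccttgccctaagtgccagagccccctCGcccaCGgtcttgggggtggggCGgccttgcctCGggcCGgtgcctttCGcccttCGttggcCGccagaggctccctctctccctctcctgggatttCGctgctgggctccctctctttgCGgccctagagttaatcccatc
Kcnq1ot1: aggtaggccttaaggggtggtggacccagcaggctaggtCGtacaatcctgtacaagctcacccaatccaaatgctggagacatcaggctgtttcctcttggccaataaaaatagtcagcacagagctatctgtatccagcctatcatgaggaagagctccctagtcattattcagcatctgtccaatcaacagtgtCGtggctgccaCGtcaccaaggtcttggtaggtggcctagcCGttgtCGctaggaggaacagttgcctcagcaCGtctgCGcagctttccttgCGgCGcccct

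The Cd81 window holds 23 CpGs, a number reached by 21.5% of the 32851 promoter windows of the same length. Ppp1r9a has 48 CpGs at start a (reached by 1.22% of windows) and 10 at start b (43.5%). Airn has 3 (76.7%) and Kcnq1ot1 has 9 (45.8%). Over the 44 windows of the 31 analysed genes that the table lists, the number ran from 0 to 48 with a median of 16.5, against a median of 7 over all windows. At least 1 CpG stands in 94.6% of all windows, both strands reading the same letters. The count describes the sequence only, and no methylation was measured.

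Many of the genes had a signal near or under the background of the arrays. As a measure of background, the 1394 olfactory and vomeronasal receptor genes on the array, which T cells are not known to use, had a median mean signal of 4.38, and 95% of them lay below 6.79 (log2). Of the 35 imprinted genes, 16 had a mean above 6.79 and 19 did not. The 16 were Kcnq1ot1, Tssc4, Cd81, Dlk1, Peg3, Peg12, Ube3a, Peg10, Copg2, Igf2r, Airn, Nnat, H13, Nap1l5, Inpp5f and Impact. A signal under this level is no proof that a gene is silent, since probes differ in brightness, and differences of such genes may be too small.

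**Figure D1:**
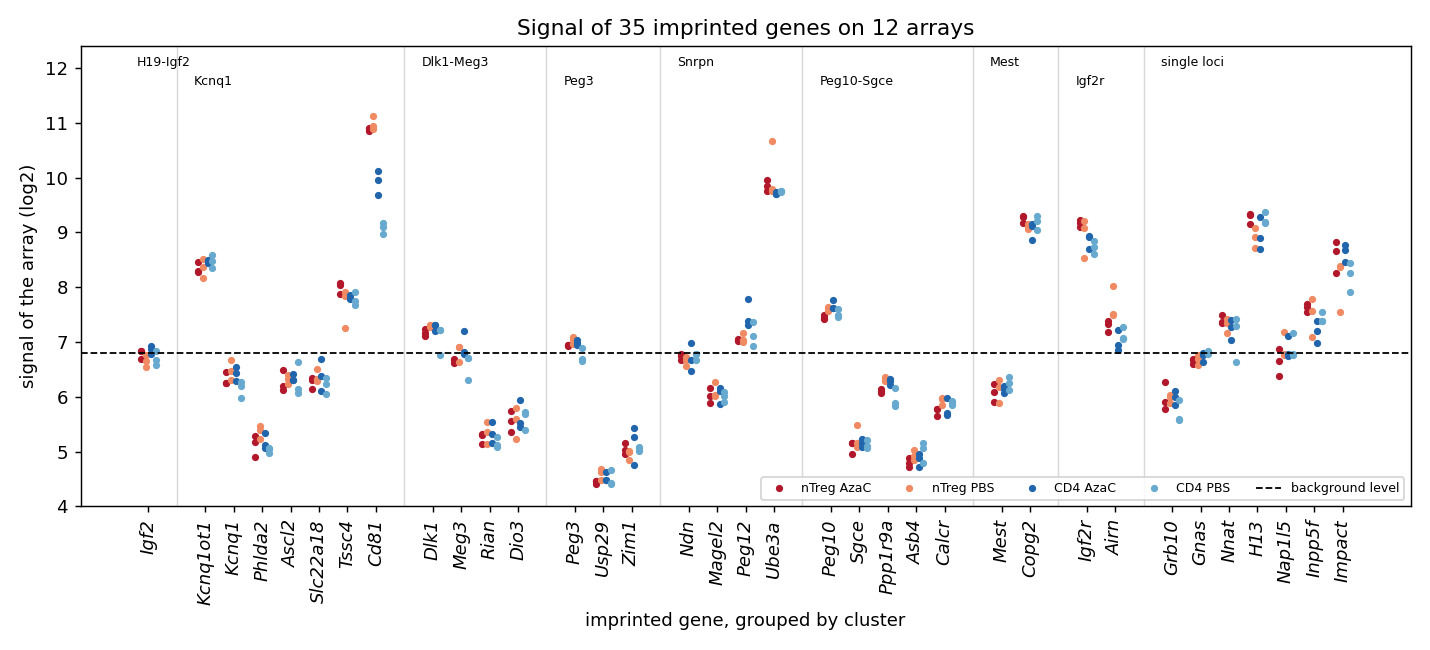
Log2 signal of 35 imprinted genes (x axis, grouped by cluster) on 12 arrays, 1 point per array and 1 colour per group, with the background level of 6.79 as a dashed line. In Cd81 all nTreg arrays lie above all CD4 arrays, and CD4 cells with AzaC above those with PBS, while most other genes show overlapping points.

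Between AzaC and PBS, 1 of these genes was called in CD4 cells and 0 in nTregs. The threshold was an adjusted p under 0.05 in limma, by the Benjamini-Hochberg method over all 22180 genes. In nTregs with AzaC against nTregs with PBS, limma called 0 of 35 imprinted genes, where it called 2.02% of all genes, 1.42% as higher and 0.6% as lower. At an unadjusted p under 0.05 stood 5 of 35 (Tssc4, Ppp1r9a, Airn, H13 and Impact), against 16.8% of all genes. In CD4 cells, AzaC raised 1 of 35, Cd81, where 1.76% of all genes were called in either direction, 0.83% as higher and 0.933% as lower. Unadjusted, 6 of 35 stood under 0.05 there, against 15.2% of all genes. These counts of members are too small to be set apart from the shares over all genes, and a gene not called may still have changed.

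The median log2 difference of the 35 genes was −0.08 in nTregs (range −0.38 to 0.47) and 0.07 in CD4 cells (range −0.28 to 0.84). Repeated quantile normalization moved the median of the 35 genes in nTregs to 0.0050, and that of all genes by 0.03. Centring the arrays moved the median of the 35 genes in CD4 cells to −0.0014, and that of all genes by −0.07. Over all genes the medians were −0.04 and 0.01, and over the receptor genes used as background −0.09 and −0.03. In nTregs 23 of the 35 genes had a negative difference and 12 a positive one, and in CD4 cells 12 were negative and 23 positive. Over all 22180 genes, 12881 were negative in nTregs and 11707 positive in CD4 cells, and of the 1394 receptor genes 1003 were negative in nTregs. The 95% intervals of the difference lay within 1 log2 unit of 0 for 35 of 35 genes in nTregs and for 34 of 35 in CD4 cells, Cd81 being the exception, and so they did for 21555 and 21739 of all 22180 genes. The values of the AzaC and PBS arrays did not overlap for 9 of 35 genes in nTregs and 9 of 35 in CD4 cells, against 24.5% and 23.6% of all genes.

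**Figure D2:**
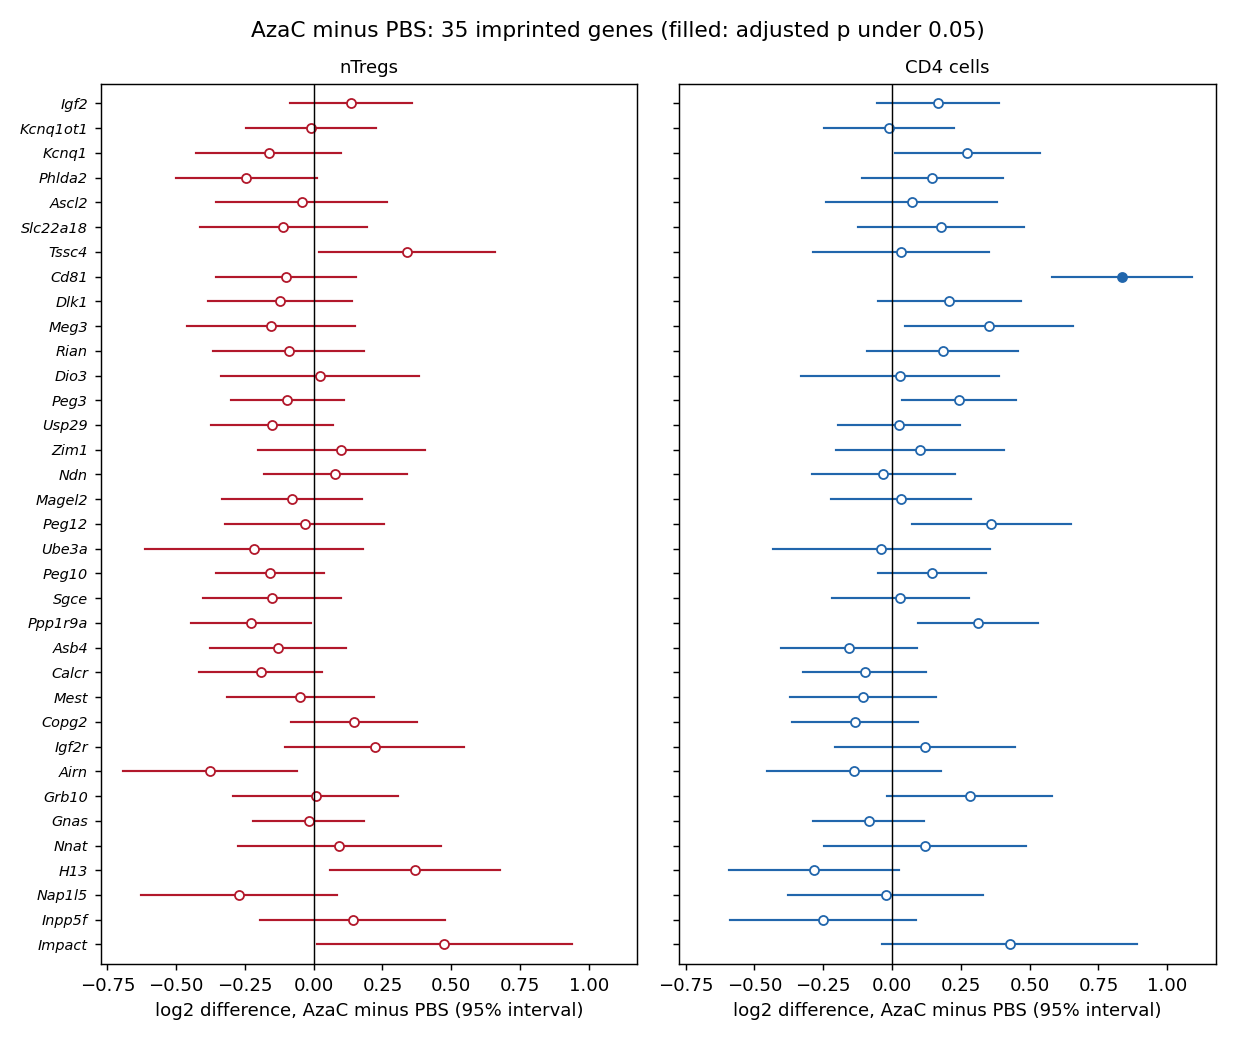
Log2 difference between AzaC and PBS for 35 imprinted genes in nTregs (left) and CD4 cells (right), with 95% intervals; filled points passed the adjusted p of 0.05. The single filled point is Cd81 in CD4 cells, at 0.84.

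Cd81, in the Kcnq1 cluster, was the gene that differed most clearly. It encodes a tetraspanin of the cell surface that is present on B cells and T cells, and its imprinting in the mouse is known from the placenta. The arrays gave 10.90, 10.88 and 10.85 in nTregs with AzaC, and 11.12, 10.88 and 10.94 in nTregs with PBS. In CD4 cells they gave 9.68, 9.95 and 10.12 with AzaC, against 8.98, 9.10 and 9.17 with PBS. All CD4 values with AzaC were above all those with PBS and below every nTreg value, and the nTreg groups overlapped.

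In CD4 cells Cd81 rose 1.79-fold with AzaC, to a mean of 9.92 ± 0.22 against 9.08 ± 0.10 with PBS (log2 difference 0.84, SE 0.12, 95% interval 0.58 to 1.09, adjusted p = 0.00219 in limma). In nTregs its difference was −0.10 (95% interval −0.36 to 0.15, adjusted p = 0.680), with means of 10.88 ± 0.02 with AzaC and 10.98 ± 0.12 with PBS. Of 5 Treg markers, 3 also rose in CD4 cells with AzaC, Foxp3 by 1.57, Ikzf4 by 0.98 and Il2ra by 0.59, in a sort gated against the Foxp3 reporter. The other markers, Ikzf2 (0.06) and Ctla4 (−0.16), did not pass. The mean over the 5 was 9.91 to 9.99 in CD4 cells with AzaC against 9.31 to 9.37 with PBS, and the part of this in the rise of Cd81 was not tested. Without each array in turn the Cd81 difference in CD4 cells stayed between 0.74 and 0.95, with an adjusted p of 0.0161 at most.

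Both AzaC effects on Cd81 differed from each other when the difference itself was tested. The effect in nTregs minus that in CD4 cells was −0.94 (SE 0.17, 95% interval −1.30 to −0.58, adjusted p = 0.0399 in limma), and Cd81 was the 1 of 35 genes called in this test, where 0.203% of all genes were called, 0.0586% with a lower and 0.144% with a higher effect in nTregs. Unadjusted, 8 of 35 stood under 0.05, against 17.5% of all genes. The call was near the threshold. It was lost without each of 10 arrays, with adjusted p between 0.0580 and 0.130 and differences between −1.06 and −0.84 over all 12 omissions, and kept without CD4 AZA 1 or nTreg PBS 1. With every array centred on its median, which moved the median of all genes by 0.12 in this test, the value was −0.81 (adjusted p = 0.0593), and with same-numbered arrays as a block the adjusted p was 0.0565.

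Cd81 was also higher in nTregs than in CD4 cells, 1.94-fold with AzaC (log2 difference 0.96, SE 0.12, adjusted p = 0.00015) and 3.72-fold under PBS (1.90, SE 0.12, adjusted p = 2.66e-07). Both calls were kept in 21 alternative analyses, and the one with AzaC was lost where a log2 difference of at least 1 was required. Of 4 measured B cell markers, Cd79b, a subunit of the B cell receptor, moved the same way: it averaged 7.91 ± 0.27 in nTregs against 6.82 ± 0.21 in CD4 cells with AzaC, and 8.12 ± 0.11 in nTregs against 7.32 ± 0.26 in CD4 cells under PBS (adjusted p = 0.00072 and 0.0069). The other 3, Ms4a1, Cd79a and Pax5, did not pass in either comparison. The mean over the 4 markers was 6.57 to 6.76 in nTregs with AzaC against 6.29 to 6.56 in CD4 cells with AzaC, and 6.60 to 6.79 in nTregs with PBS against 6.36 to 6.52 in CD4 cells with PBS. Ms4a1, Cd79a and Pax5 each averaged 5.59 to 6.69 in the 4 groups, under the background level, and the part of B cells in the Cd81 difference was not tested.

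**Figure D3:**
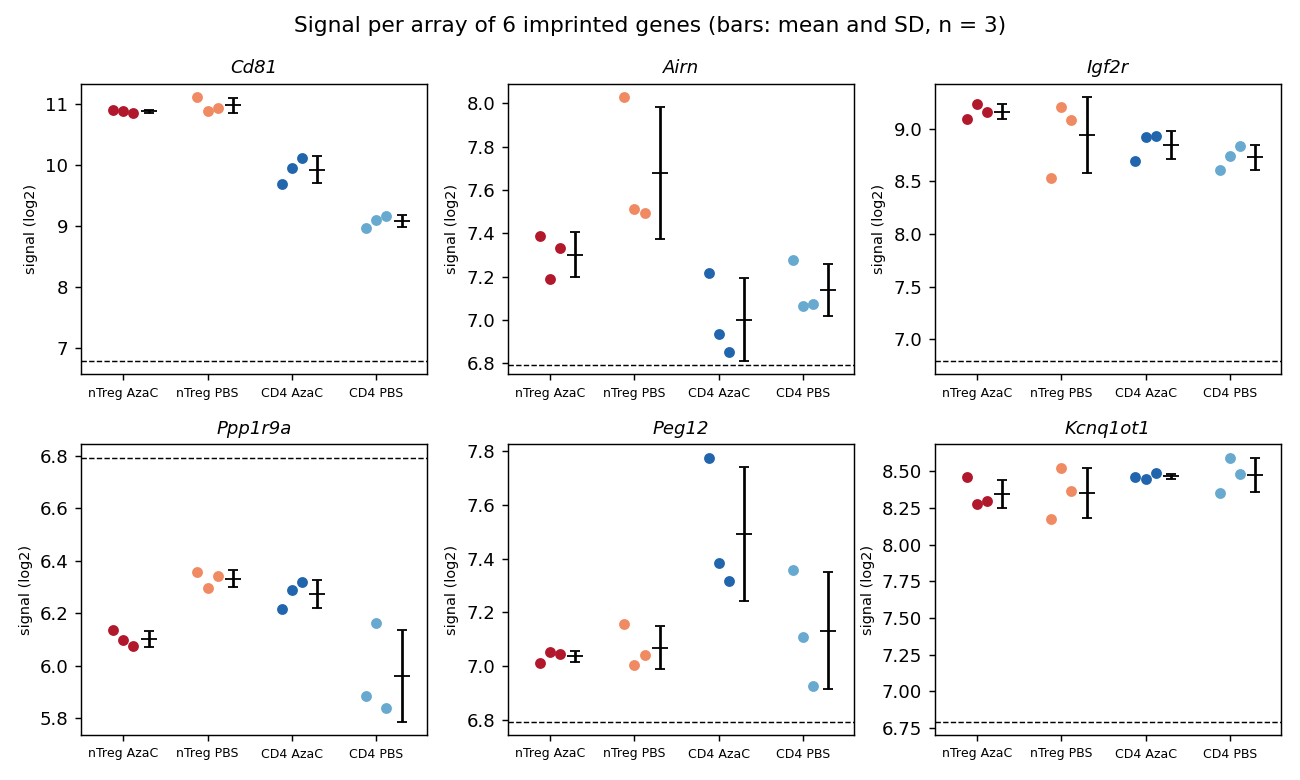
Log2 signal per array of Cd81, Airn, Igf2r, Ppp1r9a, Peg12 and Kcnq1ot1 in 4 groups, with the group mean and SD (n = 3) beside the points and the background level of 6.79 dashed; the y axes differ between panels and do not start at 0. The nTreg PBS array at the top in Airn (8.03) is at the bottom in Igf2r (8.53).

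None of the 6 other genes of the Kcnq1 cluster passed limma's test in the 5 comparisons. Kcnq1ot1 is the paternally expressed non-coding RNA that silences genes of the cluster in cis, and its promoter lies in the control region. Its signal was 8.46, 8.28 and 8.30 in nTregs with AzaC against 8.18, 8.52 and 8.36 with PBS, and 8.46, 8.45 and 8.49 in CD4 cells with AzaC against 8.35, 8.59 and 8.48 with PBS. All 4 groups overlapped. The AzaC difference was −0.01 in nTregs (95% interval −0.24 to 0.23) and −0.01 in CD4 cells (−0.25 to 0.23), so that a change of more than 0.25 in either direction lay outside both intervals.

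The remaining 5 genes of the cluster are Kcnq1 (a potassium channel), Phlda2 (a restrainer of placental growth), Ascl2 (a transcription factor of trophoblast and of follicular helper T cells), Slc22a18 (an organic cation transporter) and Tssc4. Tssc4, the only one of them above the background level, had 8.09, 7.88 and 8.04 in nTregs with AzaC against 7.25, 7.91 and 7.83 with PBS. Its difference of 0.34 in nTregs (adjusted p = 0.272) was 0.13 without nTreg PBS 1, and that in CD4 cells was 0.03.

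Kcnq1, Phlda2, Ascl2 and Slc22a18 had AzaC differences of the same signs as Cd81, negative in nTregs (−0.24 to −0.04) and positive in CD4 cells (0.07 to 0.27). Among the receptor genes, the negative sign in nTregs was the more common one, but the positive sign in CD4 cells was not. Of the 19 imprinted genes not above the background level, these 4 included, 14 were negative in nTregs and 14 positive in CD4 cells. Of the 1394 receptor genes, 1003 were negative in nTregs, and in CD4 cells 609 were positive and 785 negative. Kcnq1 had 6.46, 6.25 and 6.25 in nTregs with AzaC against 6.67, 6.46 and 6.31 with PBS, and 6.54, 6.30 and 6.43 in CD4 cells with AzaC against 6.20, 6.27 and 5.98 with PBS. The CD4 groups of Kcnq1 did not overlap, and its differences were −0.16 in nTregs and 0.27 in CD4 cells (adjusted p = 0.512 and 0.309). Phlda2 differed by −0.24 in nTregs and by 0.15 in CD4 cells, where its groups did not overlap either (adjusted p = 0.317 and 0.577). The difference between both effects was −0.44 for Kcnq1 and −0.39 for Phlda2 (unadjusted p = 0.0248 and 0.0360, adjusted p = 0.237 and 0.257). No test compared these genes with Cd81.

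Airn and Igf2r make up a cluster in which the non-coding RNA Airn, transcribed from the paternal chromosome, overlaps Igf2r in antisense and silences its paternal copy in cis. Igf2r encodes the receptor for mannose 6-phosphate and insulin-like growth factor 2. The arrays gave Airn 7.39, 7.19 and 7.33 in nTregs with AzaC against 8.03, 7.51 and 7.49 with PBS. In CD4 cells Airn had 7.22, 6.94 and 6.85 with AzaC against 7.28, 7.06 and 7.07 with PBS. Under PBS every nTreg value lay above every CD4 value, and the value of nTreg PBS 1 stood highest of all 12.

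Under PBS, Airn was 1.45-fold higher in nTregs, 7.68 ± 0.30, than in CD4 cells, 7.14 ± 0.12 (log2 difference 0.54, SE 0.15, adjusted p = 0.0379 in limma). The call was not firm. It was lost without each of 7 arrays, nTreg PBS 1 (0.36, adjusted p = 0.106), CD4 PBS 1, 2 and 3, CD4 AZA 2, and nTreg AZA 1 and 3 (adjusted p from 0.0518 to 0.119 over the 7). Without nTreg PBS 1 and CD4 PBS 3 together, an alternative chosen after seeing the data, the difference was 0.33 (adjusted p = 0.208). With AzaC, nTregs and CD4 cells differed in Airn by 0.30 (adjusted p = 0.269), and with array weights by 0.38 (adjusted p = 0.0238). The AzaC difference of Airn was −0.38 in nTregs (95% interval −0.69 to −0.06, adjusted p = 0.220), or −0.20 without nTreg PBS 1, and −0.14 in CD4 cells (adjusted p = 0.682).

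Igf2r had 9.09, 9.23 and 9.16 in nTregs with AzaC against 8.53, 9.21 and 9.08 with PBS, and 8.70, 8.92 and 8.93 in CD4 cells with AzaC against 8.61, 8.74 and 8.84 with PBS. The array nTreg PBS 1 was the lowest of the 12 in Igf2r and the highest in Airn. Igf2r was not called with equal weight for each array (nTregs minus CD4 cells under PBS 0.21, adjusted p = 0.434). It was called as higher in nTregs under PBS without nTreg PBS 1 (0.42, adjusted p = 0.0389) and with array weights (0.43, adjusted p = 0.0140). Its AzaC differences were 0.22 in nTregs and 0.12 in CD4 cells (adjusted p = 0.471 and 0.734), the first being 0.015 without nTreg PBS 1.

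Ppp1r9a, a neighbour of Peg10, encodes neurabin, a scaffold that binds actin and protein phosphatase 1. Its signal was 6.13, 6.10 and 6.07 in nTregs with AzaC against 6.36, 6.30 and 6.34 with PBS, and 6.21, 6.29 and 6.32 in CD4 cells with AzaC against 5.88, 6.16 and 5.84 with PBS. All 12 values lay under the background level, so the sizes of its differences are not exact. The AzaC arrays were all below the PBS arrays in nTregs and all above them in CD4 cells. The AzaC differences were −0.23 in nTregs and 0.31 in CD4 cells (adjusted p = 0.278 and 0.159), and their difference of −0.54 had an adjusted p of 0.154.

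Under PBS, Ppp1r9a was higher in nTregs, 6.33 ± 0.03, than in CD4 cells, 5.96 ± 0.17 (log2 difference 0.37, SE 0.10, adjusted p = 0.0390 in limma). The adjusted p rose to between 0.0523 and 0.131 without each of 10 arrays, all except CD4 PBS 2 and CD4 AZA 1, and to 0.0918 and 0.112 when the arrays were centred or quantile normalized again. Of the other genes at that locus, Peg10 (derived from a retrotransposon and needed for the placenta), Sgce (epsilon-sarcoglycan), Asb4 and Calcr (the calcitonin receptor) passed no test. All 5 genes had a negative AzaC difference in nTregs, from −0.23 to −0.13, and in CD4 cells their differences ran from −0.16 to 0.31. Of these 5 genes, 4 lay under the background level. In nTregs 14 of the 19 imprinted genes not above that level were negative, as were 12881 of all 22180 genes.

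In the Dlk1-Meg3 cluster 4 of 6 genes were analysed and 0 passed limma's test in the 5 comparisons. Dlk1 (a membrane protein related to Notch ligands, expressed from the paternal copy) differed by −0.12 in nTregs and 0.21 in CD4 cells. Meg3, a maternally expressed non-coding RNA, had 6.62, 6.69 and 6.67 in nTregs with AzaC against 6.90, 6.63 and 6.92 with PBS, and 7.20, 6.77 and 6.81 in CD4 cells with AzaC against 6.71, 6.71 and 6.30 with PBS. The CD4 groups did not overlap, and the difference of 0.35 (SE 0.14) had an adjusted p of 0.258. The sources used here do not give the strand that the probes of a row read. Rows of the table follow chromosome and strand, and of 13 neighbours of the Meg3 row whose gene strand is known, 12 belong to minus-strand genes, whereas Meg3 lies on the plus strand, so its value may be that of an antisense row. Rian, another non-coding RNA of the same strand, and Dio3 (a deiodinase that inactivates thyroid hormone) lay under the background level and had AzaC differences of −0.09 and 0.02 in nTregs and 0.18 and 0.03 in CD4 cells.

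Igf2, the paternally expressed growth factor beside H19, had 6.69, 6.84 and 6.83 in nTregs with AzaC against 6.55, 6.76 and 6.65 with PBS, and 6.93, 6.88 and 6.78 in CD4 cells with AzaC against 6.83, 6.59 and 6.67 with PBS. The groups overlapped, around the background level. Its AzaC differences were 0.13 in nTregs (95% interval −0.09 to 0.36) and 0.17 in CD4 cells (−0.06 to 0.39).

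The Peg3 cluster had 3 analysed genes. Peg3, a paternally expressed zinc finger protein, had 6.94, 6.94 and 6.92 in nTregs with AzaC against 7.09, 7.03 and 6.97 with PBS, and 6.98, 6.94 and 7.03 in CD4 cells with AzaC against 6.68, 6.89 and 6.65 with PBS. AzaC values lay below PBS values in nTregs and above them in CD4 cells, as in Ppp1r9a, but by −0.10 and 0.24 (adjusted p = 0.629 and 0.249; adjusted p = 0.239 for the difference between both effects). Under PBS, nTregs and CD4 cells differed in Peg3 by 0.29 (adjusted p = 0.0850). Usp29, which shares the promoter region of Peg3 and is read in the opposite direction, and Zim1, a maternally expressed zinc finger gene, lay under the background level and passed no test.

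Among 4 analysed genes of the Snrpn cluster, Ube3a and Peg12 were above the background level. Ube3a, a ubiquitin ligase that is imprinted in neurons and expressed from both copies in most other cells, had 9.95, 9.76 and 9.84 in nTregs with AzaC against 10.67, 9.75 and 9.78 with PBS, and 9.70 to 9.76 on all 6 CD4 arrays. The array nTreg PBS 1 was again far from its group. Peg12, which binds the kinase Gsk3, had 7.01, 7.05 and 7.05 in nTregs with AzaC and 7.16, 7.00 and 7.04 with PBS. In CD4 cells it had 7.78, 7.38 and 7.32 with AzaC and 7.36, 7.11 and 6.92 with PBS.

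With AzaC, all nTreg values of Peg12 lay below all CD4 values, and the difference of −0.46 (SE 0.13) had an adjusted p of 0.0595, outside the threshold. It came to 0.0497, 0.0448 and 0.0391 without CD4 PBS 1, CD4 PBS 3 and nTreg PBS 1, which are not arrays of that comparison and enter only through the shared variance and the adjustment. Without single arrays of the comparison itself the difference ran from −0.54 to −0.31. Over all 12 omissions the adjusted p in limma ran from 0.0391 to 0.254. Ndn and Magel2, both of the MAGE family, lay under the background level, with AzaC differences between −0.08 and 0.08.

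At the other loci, 9 genes were analysed and passed no test. H13, the signal peptide peptidase, had 9.15, 9.33 and 9.32 in nTregs with AzaC against 8.71, 8.91 and 9.08 with PBS, and 8.90, 9.28 and 8.70 in CD4 cells with AzaC against 9.37, 9.19 and 9.18 with PBS. Its groups did not overlap in nTregs, where the difference was 0.37 (SE 0.14, adjusted p = 0.220), and overlapped in CD4 cells, where it was −0.28 (adjusted p = 0.370). The difference between both effects was 0.65 (SE 0.20, adjusted p = 0.194). Impact, an inhibitor of the activation of the kinase Gcn2, had an AzaC difference of 0.47 in nTregs (95% interval 0.01 to 0.94, adjusted p = 0.285) and of 0.43 in CD4 cells (adjusted p = 0.365). Its arrays gave 8.82, 8.65 and 8.26 in nTregs with AzaC against 7.55, 8.38 and 8.39 with PBS, and without the lowest, nTreg PBS 1, the difference in nTregs was 0.20.

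Gnas, the alpha subunit of the stimulatory G protein, had 6.61, 6.70 and 6.67 in nTregs with AzaC against 6.58, 6.77 and 6.69 with PBS, and 6.64, 6.76 and 6.79 in CD4 cells with AzaC against 6.83, 6.79 and 6.82 with PBS. Its AzaC differences were −0.02 and −0.08. The others, Grb10 (an adaptor that restrains insulin signalling), Nnat (neuronatin), Nap1l5, Inpp5f (an inositol phosphatase), Mest and Copg2 (a coat protein of transport vesicles), had AzaC differences from −0.27 to 0.15 in nTregs and from −0.25 to 0.28 in CD4 cells. Inpp5f was 0.43 higher in nTregs than in CD4 cells with AzaC, at an adjusted p of 0.127. It was called without nTreg PBS 1 (adjusted p = 0.0254), with the compared groups alone (0.0373) and with array weights (0.51, adjusted p = 0.00645). In these settings the calls over all genes rose as well, from 1498 to 2467, 2350 and 3500 in turn.

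Between the populations, limma called 1 of 35 genes with AzaC, Cd81, higher in nTregs, where 6.75% of all genes were called, 4.57% as higher and 2.19% as lower. Under PBS it called 3 of 35, Cd81, Airn and Ppp1r9a, all higher in nTregs, where 8.01% of all genes were called in either direction, 3.9% as higher and 4.12% as lower. The counts of members are too small to be set apart from these shares. Unadjusted, 4 of 35 stood under 0.05 with AzaC and 7 of 35 under PBS, against 20.5% and 23% of all genes. The values of nTregs and CD4 cells did not overlap for 11 of 35 genes with AzaC and 9 of 35 under PBS, against 32.3% and 26.7% of all genes. The median difference, nTregs minus CD4 cells, was −0.06 with AzaC and 0.09 under PBS, beside −0.04 and 0.03 over all genes, and the one with AzaC turned to 0.014 when quantile normalization was repeated. Both population comparisons share their arrays with the AzaC comparisons, so their values are given side by side and not correlated.

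**Figure D4:**
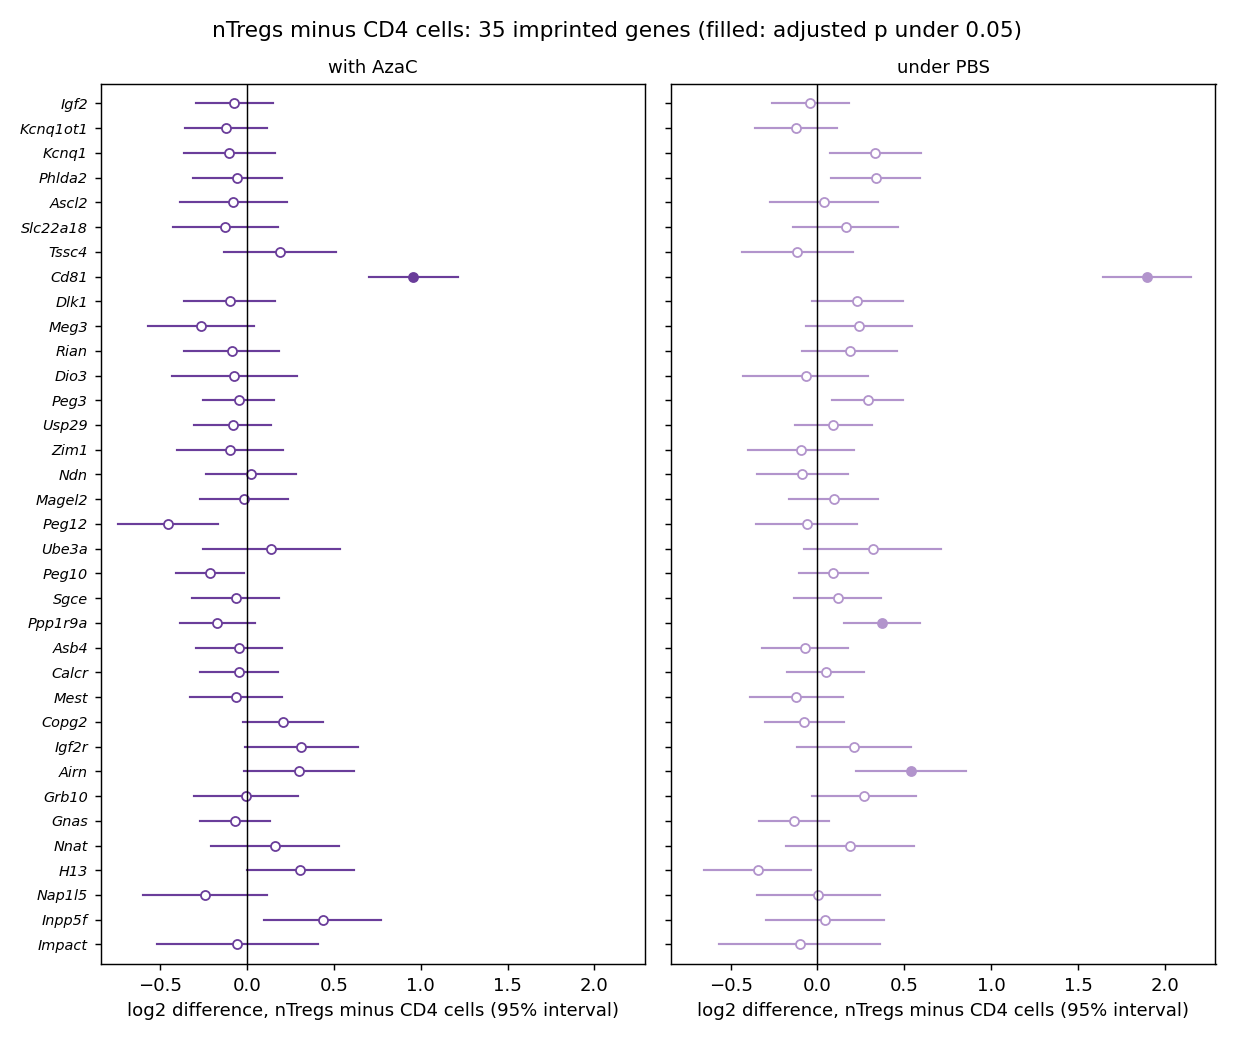
Log2 difference between nTregs and CD4 cells for 35 imprinted genes with AzaC (left) and under PBS (right), with 95% intervals; filled points passed the adjusted p of 0.05. Cd81 stands apart at 0.96 with AzaC and 1.90 under PBS; Airn (0.54) and Ppp1r9a (0.37) are the other filled points.

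A further list of 45 imprinted genes, of which 39 were measured, held 2 genes called as higher with AzaC in nTregs and 0 called in CD4 cells. Plagl1, a zinc finger transcription factor, averaged 9.07 ± 0.17 in nTregs with AzaC, 6.77 ± 0.12 in nTregs with PBS, 6.26 ± 0.14 in CD4 cells with AzaC and 5.88 ± 0.04 in CD4 cells with PBS. It rose 4.93-fold in nTregs with AzaC, and the effect in nTregs exceeded that in CD4 cells by 1.92 (SE 0.16, adjusted p = 0.000268), a call kept without each array. Only the Plagl1 mean in nTregs with AzaC lay above the background level of 6.79. The other gene raised in nTregs was Bcl2l1 (an inhibitor of apoptosis, 0.71, adjusted p = 0.0424). The 2 of 39 in nTregs stand beside 2.02% of all genes and the 0 of 39 in CD4 cells beside 1.76%. In limma, 8 of 39 in nTregs and 6 of 39 in CD4 cells had an unadjusted p under 0.05, against 16.8% and 15.2% of all genes. The call of Bcl2l1 was lost without each of 9 arrays (adjusted p from 0.0539 to 0.145), those other than nTreg PBS 1, 2 and 3.

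Between nTregs and CD4 cells, 3 of the 39 were higher and 3 lower with AzaC, and 3 higher and 1 lower under PBS. Over all genes, 4.57% were higher and 2.19% lower with AzaC, and 3.9% higher and 4.12% lower under PBS. Plagl1 was higher in nTregs by 2.81 with AzaC and by 0.89 under PBS, where both group means lay under the background level. Herc3, a ubiquitin ligase gene, was lower in nTregs by −0.54 with AzaC and −0.92 under PBS, and Atp10a, a phospholipid-transporting ATPase, by −0.80 with AzaC. Tspan32, a tetraspanin gene beside Cd81, was higher by 0.68 with AzaC and 0.47 under PBS, and Phactr2, a neighbour of Plagl1, by 0.72 and 0.71. Every group mean of Phactr2 lay under the background level, from 5.88 to 6.73. Ins2, an insulin gene under the background level, was lower by −0.50 with AzaC. The calls of Plagl1, of Herc3 under PBS, and of Tspan32 and Atp10a with AzaC were kept without each array. The others were lost without at least 1 array: Herc3 with AzaC without CD4 AZA 1, 2 or 3 or nTreg AZA 1 or 3 (adjusted p up to 0.138), Phactr2 with AzaC without CD4 AZA 1, 2 or 3 or nTreg AZA 1 or 2 (up to 0.115) and under PBS without CD4 PBS 3 or nTreg PBS 1 or 3 (up to 0.108), Ins2 without CD4 AZA 1 or 3 or nTreg AZA 2 (up to 0.0883), and Tspan32 under PBS without any array but nTreg PBS 1 (up to 0.132).

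Of 16 genes that keep imprints or the methylation they rest on, 1 rose with AzaC in CD4 cells, Hells (a chromatin remodeller, 0.63, adjusted p = 0.00637), and 0 passed in nTregs (4 at an unadjusted p under 0.05 in limma), against 1.76% and 2.02% of all genes (16.8% unadjusted in nTregs). In nTregs against CD4 cells, 3 were lower with AzaC, Hells (−0.75), Smchd1 (a chromosomal silencing protein, −0.47) and Cbx5 (heterochromatin protein 1 alpha, −0.43), and 3 under PBS, Uhrf1 (which brings Dnmt1 to replicated DNA, −0.83), Cbx5 (−0.50) and Ctcf (the insulator protein that binds imprinting control regions, −0.45). Over all genes, 2.19% were lower with AzaC and 4.12% under PBS. Both calls of Hells were kept without each array. That of Uhrf1 was lost without CD4 PBS 3 (adjusted p = 0.0603), and that of Smchd1 without CD4 AZA 3 or nTreg AZA 3 (up to 0.0640). Cbx5 was lost under PBS without CD4 PBS 1 or 2 or nTreg PBS 1 (up to 0.0600) and with AzaC without CD4 PBS 1 or 2, CD4 AZA 2 or 3, or nTreg AZA 1 or 3 (up to 0.149), and Ctcf without CD4 PBS 1, 2 or 3, CD4 AZA 3, nTreg PBS 1 or 3, or nTreg AZA 1 or 3 (up to 0.159). Zfp57 and Trim28, which recognise and silence methylated imprints, did not pass in any comparison.

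Markers of stromal cells, in which imprinted genes are often strongly expressed, gave no called difference. Of 5 stromal markers (Col1a1, Col1a2, Col3a1, Pdgfra and Pdgfrb) 0 passed in the 5 comparisons of limma, and their mean ran from 6.62 to 6.74 in nTregs with AzaC, 6.74 to 6.77 in nTregs with PBS, 6.72 to 6.79 in CD4 cells with AzaC and 6.48 to 6.69 in CD4 cells with PBS. At an unadjusted p under 0.05 stood 1 of the 5 in nTregs and 2 of the 5 in CD4 cells with AzaC against PBS. Of 6 erythroid markers only Klf1 was measured, at 6.19 to 6.67 over the 12 arrays. In nTregs with AzaC, 2 of 2 measured CD8 T cell markers rose, Cd8a by 1.39 and Cd8b1 by 0.72. Their mean was 9.62 to 9.75 in nTregs with AzaC against 8.35 to 8.96 with PBS. The interval of Cd81 in that comparison was −0.36 to 0.15. In nTregs against CD4 cells with AzaC, 2 of 2 CD8 T cell markers were also called higher, by 1.27 to 1.36. Under PBS 0 of 2 were called. Cd81 was called higher in nTregs with AzaC and under PBS. Of 6 myeloid markers, 6 had a negative AzaC difference in nTregs and 1 was called, Itgam, which fell by 0.94 on the log2 scale. Their mean was 5.84 to 6.04 in nTregs with AzaC against 6.26 to 6.43 with PBS. Of the 1394 receptor genes, 1003 were negative there. In CD4 cells 3 of the 6 were negative and 0 were called. The part of CD8 T cells and myeloid cells in the values of the imprinted genes was not tested.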

How the data were processed

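RNA of 12 samples was hybridised to Affymetrix arrays after WT Pico labelling, per the labels' protocols. Per the submitters' processing notes, the authors deposited log2 signals from RMA, run in Affymetrix Expression Console; the sources used here give neither its version nor a genome build. RMA corrects background and applies quantile normalization, which can hide a shift shared by most genes. The table has 41345 rows, of which 25335 are in the probe table, 23521 with 1 symbol, 1814 with several and 16010 without a name. No 2 arrays were identical. All 22180 genes were fitted with 1 mean per group and all 12 arrays in limma 3.58.1 (R 4.3.3, statmod 1.5.0), with 8 residual degrees of freedom and no filter on dim genes. The median SE was 0.13, and 0.18 for the difference between AzaC effects. The number of arrays limits the precision.

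The imprinted genes, the further lists and the tests were chosen with earlier results of these data known. Values per array are given for genes called in any of the 5 comparisons, the 2 with the smallest p in each, and H19, Igf2, Kcnq1ot1, Meg3, Peg3, Snrpn, Igf2r and Gnas where measured. Ube3a, Impact, Inpp5f, Tssc4 and Kcnq1 were picked after their values were seen. Genes of the further lists are named where called. The fit was tested on simulated data. Alternatives were a dim-gene filter, centring, repeated quantile normalization, leaving out arrays, the mean over a gene's rows, the compared groups alone, a replicate block, array weights, trended and robust moderation, and a minimum log2 difference of 1. No sequence carries a measurement, and promoters come from RefSeq (GRCm38.p6).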

Additional observations from a re-analysis of the deposited data

Results flagged for a closer look

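Cd81 was marked for a closer look because its AzaC effects in nTregs and in CD4 cells differed by a test of the difference itself, −0.94 on the log2 scale (nTregs minus CD4 cells, adjusted p = 0.0399 in limma, −0.10 in nTregs and 0.84 in CD4 cells). The 3 CD4 arrays with AzaC lay above the 3 with PBS, and the nTreg groups overlapped. The call was lost without each of 10 of the 12 arrays (adjusted p from 0.0580 to 0.130), with arrays centred (0.0593) and with the replicate block (0.0565).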

How the results depend on the processing

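The count of 0 imprinted genes called between AzaC and PBS in nTregs held in all 22 alternatives. The count of 1 in CD4 cells held in all but the demand for a log2 difference of at least 1, which gave 0. For the difference between AzaC effects the count of 1 became 0 with arrays centred, with the replicate block and with that demand, and ran from 0 to 1 without single arrays. For nTregs against CD4 cells under PBS the count of 3 became 1 (Cd81) with arrays centred, with repeated quantile normalization, with the compared groups alone and with a difference of at least 1, became 4 with array weights (Igf2r added), and ran from 1 to 3 without single arrays. With AzaC the count of 1 became 2 with dim genes left out, with repeated quantile normalization and with the replicate block, 3 with the compared groups alone, 5 with array weights (Peg12, Airn, H13 and Inpp5f added), 4 without nTreg PBS 1 and CD4 PBS 3 (added after seeing the data) and 0 with a difference of at least 1, and ran from 1 to 3 without single arrays. For nTregs against CD4 cells with AzaC, calls over all 22180 genes went from 1498 to 3500 with array weights. They were 2972 without nTreg PBS 1 and CD4 PBS 3, 2350 with the compared groups alone and 1514 with repeated quantile normalization. The replicate block gave 1434, and leaving out dim genes 1704 of 12641. Under PBS the 1777 became 1998 with arrays centred and 1581 with repeated quantile normalization. Among 1139 alternative values of 11 named genes 0 turned a call round, 38 lost a call and 15 gained one. Median differences of the imprinted genes moved by less than the residual SD of 0.15 throughout. The medians themselves were smaller than this SD, so a change of sign could not show by that measure. With arrays centred, the median for the difference between effects went from −0.12 to 0.0098, and that under PBS from 0.09 to 0.0038. The medians of all genes moved there by 0.12 and −0.09. The rows that carry a gene together with other symbols were not run.

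Pairing was looked at in the deviations, the values left after each gene's group mean was subtracted. These deviations correlated above 0.1 between same-numbered arrays in 2 of 3 pairs of nTregs with AzaC and PBS. They did so in 0 of 3 pairs of the other comparisons, so the numbers were not taken as pairs. By these deviations, an array correlated best with its own number in 2 of 3 pairs of nTregs with AzaC and PBS. For CD4 cells with AzaC and PBS it did so in 0 of 3. For nTregs and CD4 cells it did so in 3 of 3, both with AzaC and under PBS (correlations from 0.02 to 0.09). As nTregs and Treg-depleted T cells were cultured together and then sorted, same-numbered arrays of both populations may come from the same culture. The labels do not state this, and the main fit treated all arrays as independent. Under the replicate block Cd81 lost its call for the difference between effects (adjusted p = 0.0565), Ppp1r9a that under PBS (0.0535), and Peg12 gained one with AzaC (−0.46, adjusted p = 0.0372), while no other named gene changed its call.

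Counts over all genes moved as well. The 448 genes called in nTregs were 1290 with array weights, 125 with the compared groups alone, 71 with a difference of at least 1 and 186 to 447 without single arrays. The 391 in CD4 cells were 1291 with array weights, 57 with that difference and 164 to 1044 without single arrays. The 45 for the difference between effects were 401 with weights, 89 centred, 78 without dim genes and 9 to 69 without single arrays. The 1777 under PBS were 2528 with weights, 648 with the compared groups alone, 279 with that difference and 1042 to 1862 without single arrays. The 1498 with AzaC were 3500 with weights, 2350 with the compared groups alone, 289 with that difference and 896 to 2467 without single arrays. Genes near the background level may show differences that are too small.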

Other observations

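The array nTreg PBS 1 gave the highest Airn and Ube3a signals of the 12 arrays (8.03 and 10.67) and the lowest of Igf2r and Impact (8.53 and 7.55).

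H13, Nnat and Ube3a each had a further row of the table with their symbol alone, at a mean of 6.29, 6.06 and 5.45 against 9.09, 7.27 and 9.85 in the row used. These genes lie on the plus strand. Of the neighbours of the further rows whose gene strand is known, 14 of 15 (H13), 16 of 17 (Nnat) and 9 of 10 (Ube3a) belong to minus-strand genes. The values of the further rows may thus be those of antisense rows, as for Meg3. In the further row of Nnat the AzaC difference was 1.09 in nTregs (adjusted p = 0.269) and 0.49 in CD4 cells (adjusted p = 0.651), against 0.09 and 0.12 in the row used. H13 had −0.27 in nTregs in its further row (adjusted p = 0.258), against 0.37 in the row used.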
